A study of Mus musculus with 7 samples.

Results

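The loci described here are those where the transcript assembly placed a microRNA and a longer gene under 1 entry, so that both share 1 expression value. Members were chosen by name alone: a locus was taken when it named at least 1 microRNA and at least 1 other gene or host transcript such as Mir17hg, and 7 loci that also named Dio3os, a small nucleolar RNA or the imprinted Rian, Mirg, Meg3, H19 or Igf2 were left out. This gave 129 of 35534 loci in the table, of which 25791 carried a gene name. The 129 loci held 139 microRNA symbols, 121 loci with a single one and 8 with 2 or 3.

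RNA was sequenced from the gonadal fat of male CD1 mice on postnatal day 21. The dams of 4 pups had received BDE-47, a brominated flame retardant, at 0.2 mg/kg body weight every day from pregnancy day 8 to postpartum day 21. The dams of 3 control pups had received only the vehicle, corn oil stripped of tocopherol, over the same days. Each pup came from a different litter, and the study dropped a further control library that had fewer reads. Libraries were made from poly(A)-selected RNA and read from 1 end in 75 cycles.

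A microRNA starts as a hairpin inside a long transcript made by RNA polymerase II. In the nucleus the Drosha enzyme and its partner Dgcr8 cut the hairpin free, and Dicer then trims it to the mature microRNA, which an Argonaute protein carries to messenger RNAs that pair with its seed, bases 2 to 8. Many microRNAs lie within introns or exons of protein-coding genes, and others have a non-coding host transcript of their own. Poly(A)-selected libraries do not measure the mature microRNA, so every value below belongs to the longer RNA of the locus, the precursor RNA or both. The hairpins placed for the joined loci were 43 to 137 bases long. The share of the hairpin and of the longer gene in a joined value is not given and was not tested.

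The table holds 1 value for each group and none for single mice. Levels are given in FPKM, fragments counted relative to transcript length and to the mapped fragments of the library, as the authors' value for the group, and a ratio is that of the BDE-47 value to the control value. The table gives neither the spread between mice nor the reads behind a value, so no ratio was tested, and "2-fold" marks size only. Of the 129 joined loci, 113 were above 1 FPKM in at least 1 group, the filter used for all counts, and 16 were not.

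In the table as a whole, the summed fat cell markers were close between the groups, while markers of liver and epididymis were lower in the BDE-47 group and those of muscle were mixed. The summed level of 9 adipocyte markers was 48100 FPKM in the control group and 48800 FPKM in the BDE-47 group. The 11 hepatocyte markers summed to 673 and 50.4 FPKM and were all at least 2-fold lower in the BDE-47 group, and the 9 epididymis markers summed to 43.8 and 0.425 FPKM. Of 6 smooth muscle markers, 3 were at least 2-fold higher in the BDE-47 group, while Tagln was at 154 and 158 FPKM and Acta2 at 140 and 130 FPKM. Of the skeletal muscle markers, Acta1 was at 120 and 28.6 FPKM and Myl1 at 40.5 and 43.4 FPKM. In bulk tissue, fewer cells of a type and less RNA per cell cannot be told apart, and the part of these differences in the values of the joined loci was not tested.

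Sequences are shown for the microRNAs of the loci that stood farthest apart between the groups, and for well-known families, with the seed in capitals. They are mature sequences from RefSeq (GRCm38.p6), written 5′ to 3′, and 125 of the 139 microRNA symbols had at least 1.
miR-6369 (Kif27 locus): uGGCUCAGuucaguguuggugag
miR-24-3p (2010111I01Rik locus): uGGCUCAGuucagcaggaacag
miR-1199-5p (2210011C24Rik locus): uCUGAGUCccggucgcgcgg
miR-29b-3p (A330023F24Rik locus): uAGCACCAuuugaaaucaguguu
miR-29c-3p (A330023F24Rik locus): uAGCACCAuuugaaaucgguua
miR-322-5p (C430049B03Rik locus): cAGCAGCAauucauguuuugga
miR-503-5p (C430049B03Rik locus): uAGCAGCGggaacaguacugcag
miR-351-5p (C430049B03Rik locus): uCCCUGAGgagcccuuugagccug
miR-19b-3p (Mir17hg locus): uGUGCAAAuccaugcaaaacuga
miR-1306-3p (Dgcr8 locus): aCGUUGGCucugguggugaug
miR-26a-5p (Ctdsp2 locus): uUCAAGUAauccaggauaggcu
miR-223-3p (F630028O10Rik locus): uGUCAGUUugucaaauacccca
miR-6409 (Gm5134 locus): uGCGGGUGaggaugugugcuccu
miR-8113 (Cd27 locus): cAGGAGAGucaggggcaaguag
miR-6537-5p (Pou2f2 locus): gUGAGUUUcucccacuggugac
miR-678 (Prmt2 locus): gUCUCGGUgcaaggacuggagg

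Among these, miR-29b-3p and miR-29c-3p share the seed AGCACCA and sit in the same locus. The seed GGCUCAG of miR-24-3p is also that of miR-6369, and the identical run continues past the seed in both. In all, 8 seeds occurred in 2 joined loci each. One was AGGAGAG, carried by miR-8113 of the Cd27 locus and by miR-8119 of the locus of Lck, a kinase of T cells, which had 0.47 FPKM in the control and 0.774 FPKM in the BDE-47 group and did not pass the filter.

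The joined loci were mostly close to equal in both groups, with a tail of large ratios in each direction. At least 2-fold higher in the BDE-47 group were 13 of the 113 loci (11.5%), against 0.811% of the 14172 named loci that passed the filter and were above 0 in both groups. At least 2-fold lower were 7 loci (6.19%), against 3.87% of all. The median log2 ratio was 0.05 over the joined loci and 0.01 over all, while the median size of the log2 ratio without its sign was 0.23 and 0.15. Within 1.2-fold lay 63 of the joined loci (55.8%) and 71.3% of all. Of the 20 joined loci at or past 2-fold, 5 were above 1 FPKM in 1 group only, which the filter lets through because of their high group. Among loci above 1 FPKM in both groups the counts were 15 of 108 joined loci (13.9%) and 1.98% of all.

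**Figure D1:**
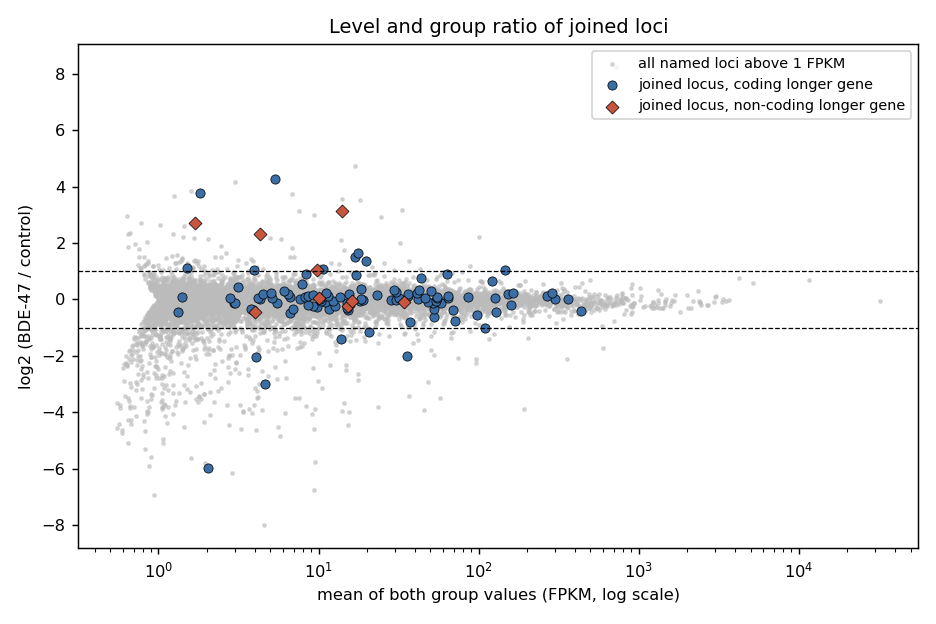
Each point is a locus, with the mean of its group values in FPKM (log scale) on the horizontal axis and its log2 ratio of BDE-47 to control on the vertical axis; dashed lines mark 2-fold. Grey points are the 14172 named loci, circles the 104 joined loci with a coding longer gene and diamonds the 9 with a non-coding one, of which 4 lie above the upper line and 0 below the lower.

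The share at or past 2-fold was higher for the joined loci at low, middle and high levels. Below a mean of 5 FPKM it was 40% of 20 joined loci and 10.2% of all, and between 5 and 20 FPKM it was 17% of 47 joined loci and 2.27% of all. At 20 FPKM and over it was 8.7% of 46 joined loci and 1.19% of all. Loci that joined several longer genes with no microRNA stood near the whole table, with 13 of 300 (4.33%) past 2-fold, all of them lower. Of the loci that named microRNAs alone, 106 passed the filter, and 54 of these were at 0 in 1 group, 25 in the control and 29 in the BDE-47 group, so that they have no ratio. Of the other 52, 7 were higher and 6 lower (25%).

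**Figure D2:**
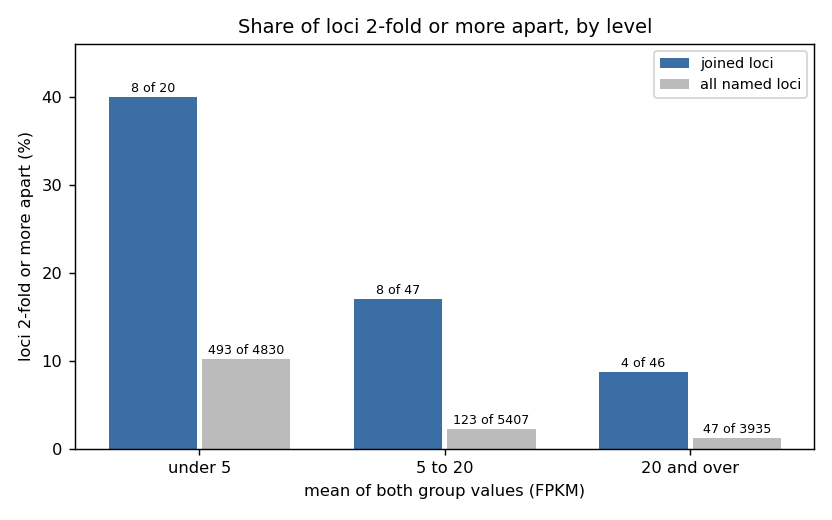
Bars give the percentage of loci at or past 2-fold in either direction, by the mean of both group values in FPKM; blue bars are joined loci, grey bars all named loci, and the counts stand above each bar. The blue bar is the taller in each of the 3 classes, with 8 of 20, 8 of 47 and 4 of 46 loci.

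By the kind of longer gene, 16 of 104 joined loci with a coding gene were past 2-fold (9 higher and 7 lower, 15.4%), against 4.26% of loci with a single coding gene. Of the 9 with a non-coding gene that passed, 4 were higher and 0 lower, against 9.78% of loci with a single non-coding gene in either direction. This split was made after the values were seen. The 4 are host transcripts of long-known microRNA families and are described first.

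The largest ratio among them belonged to A330023F24Rik (chr1:195017158-195039001, mm10), the non-coding host of miR-29b-2 and miR-29c, microRNAs known to repress collagen and other matrix messages. Its value was 2.85 FPKM in the control and 25.3 FPKM in the BDE-47 group, 8.88-fold higher. Both hairpins lie wholly within an exon of the host transcript. The hairpin of miR-29c is shown because the row that names it is the one that differed. It is 88 bases long (chr1:195037547-195037634, plus strand), with both mature arms in capitals.
Mir29c: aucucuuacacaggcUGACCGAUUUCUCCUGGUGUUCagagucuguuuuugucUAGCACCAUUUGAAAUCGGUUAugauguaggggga

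The table lists the same host gene in 3 further rows within the same span and with no microRNA named. Their values were low and close between the groups, 0.409 and 0.48, 0.374 and 0.279, and 0.547 and 0.384 FPKM in the control and BDE-47 group.

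The non-coding C430049B03Rik (chrX:53053019-53057190) was named with miR-322, miR-351 and miR-503. The first and last belong to the wider miR-15/16 group, known to restrain cell cycle genes, and miR-351 has the seed of miR-125. The locus was at 0.451 FPKM in the control and 2.95 FPKM in the BDE-47 group, 6.54-fold higher. It passed the filter through the BDE-47 group only, and with 1 FPKM added to both values the ratio was 2.72-fold. Its 3 hairpins lie on the strand of the host gene but outside its annotated body. A second row of the gene without a microRNA was at 0.841 and 1.18 FPKM.

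The host of the miR-17-92 cluster, Mir17hg (chr14:115044305-115046851), was joined to miR-19b-1. The span of this row starts at the first base of the miR-19b-1 hairpin, so the part of the cluster before it lies outside the row. Mir19a, which lies before that start, has a row of its own at 0 in both groups. The cluster is known for promoting cell division. The locus was at 1.45 FPKM in the control and 7.21 FPKM in the BDE-47 group, 4.96-fold higher. Another relative of the cluster, miR-106a with Kis2, was listed at 0 in the control and at 0.0218 FPKM in the BDE-47 group and did not pass the filter.

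F630028O10Rik (chrX:96239926-96243642) hosts miR-223, which is abundant in neutrophils and other myeloid cells. It was at 6.45 and 13.2 FPKM, 2.04-fold higher in the BDE-47 group and just inside the threshold. Most myeloid markers that passed the filter were lower in the BDE-47 group. Of 6 neutrophil genes found, 3 passed. S100a8 was at 47.8 and 20.3 FPKM and S100a9 at 3.03 and 1.08 FPKM in the control and BDE-47 group, and Retnlg shares a row with Retnla, at 734 and 832 FPKM, and has no value of its own. The 7 macrophage markers summed to 1230 and 767 FPKM, with 6 of the 7 lower. Their part in the miR-223 host value was not tested.

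The other 5 non-coding hosts that passed the filter lay within 1.35-fold. Mir22hg with miR-22 was at 35.3 and 33.4 FPKM in the control and BDE-47 group. Lincppara with let-7b and let-7c-2, of the let-7 family that restrains growth, was at 16.4 and 14.1 FPKM. Its rows without a microRNA were higher in the BDE-47 group, at 0.774 and 1.25 and at 0.48 and 0.768 FPKM. Mir143hg, host of the smooth muscle pair miR-143 and miR-145a, was at 16.6 and 16 FPKM. E130102H24Rik with miR-101a was at 9.92 and 10.3 FPKM, and 5730408K05Rik with miR-5136 at 4.63 and 3.43 FPKM. Coding hosts of long-known microRNAs, chosen after their values were seen, ranged more widely. Vmp1 with miR-21a was at 28.8 and 28.2 FPKM, Hoxd3 and Hoxd4 with miR-10b at 9.19 and 8.06 FPKM, and Chpf2 with miR-671 at 64 and 41.9 FPKM. Of all joined loci that passed, 29 named a microRNA with a number of fewer than 4 digits or of the let-7 family. Past 1.5-fold were 11 of these 29, against 1440 of all 14172 named loci. At least 2-fold higher were 5 (17.2%) and lower 1 (3.45%), against 0.811% and 3.87% of all named loci.

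The 3 listed hosts of microRNAs with a known place in fat or lipid metabolism were all above 1 FPKM. Among them was Mir143hg, described above, at 16.6 and 16 FPKM in the control and BDE-47 group. Ctdsp2 (chr10:126978717-126999975), a phosphatase of RNA polymerase II, was named with miR-26a-2 and miR-546. It was among the most abundant joined loci, at 95 FPKM in the control and 197 FPKM in the BDE-47 group, 2.07-fold higher. The coding 2010111I01Rik, whose entry held miR-23b, miR-27b and miR-24-1, was at 12.2 and 22 FPKM, a ratio of 1.8 that stayed under the threshold. A second row of the gene, without a microRNA, went the other way at 1.42 and 1.01 FPKM. Mir3074-1, listed in the same span, was at 5.7 and 43.1 FPKM. The muscle host Linc-md1 with miR-133b was at 0 in both groups, and Mir155hg with miR-155, a microRNA of activated immune cells, was at 0.167 and 0.206 FPKM. Over the lists of microRNA families, 8 joined loci passed the filter, and 5 were at least 2-fold higher and 0 lower in the BDE-47 group, against 0.811% and 3.87% of all named loci. No joined locus held the endothelial or liver microRNAs listed.

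**Figure D3:**
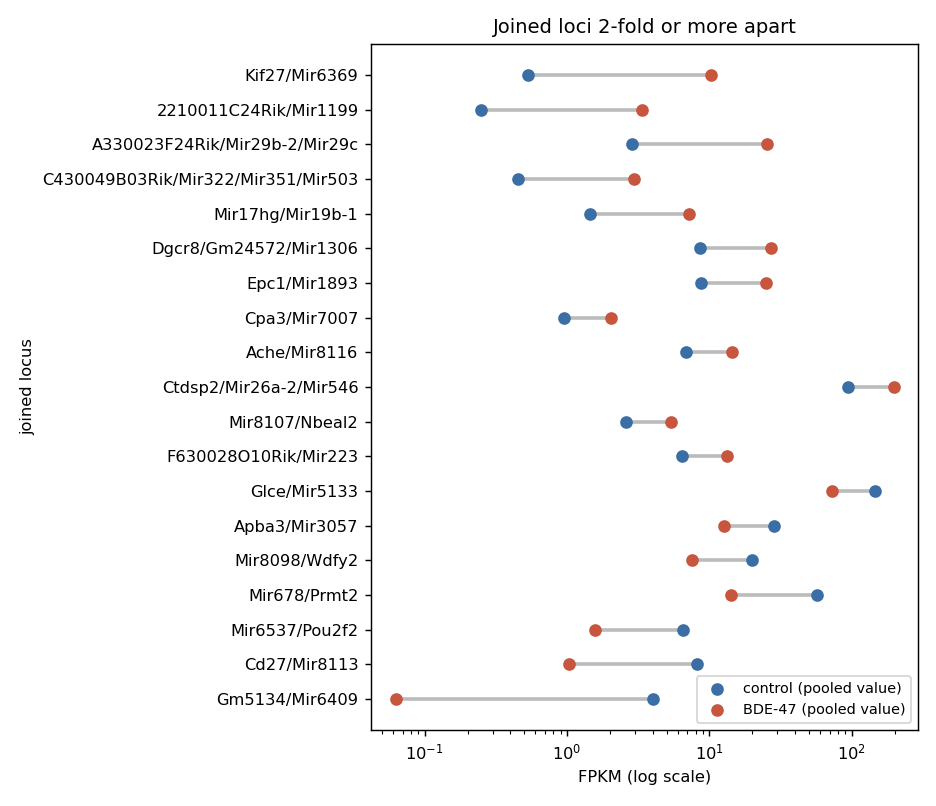
Of the 20 joined loci at or past 2-fold, 19 are plotted, from the highest ratio at the top to the lowest at the bottom, with the control value in blue and the BDE-47 value in red (FPKM, log scale); grey lines join the pair. Red lies to the right in the upper 12 and to the left in the lower 7, and 8 of the 19 have a mean below 5 FPKM.

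Of the coding loci that were higher, Kif27 with miR-6369 (chr13:58287516-58354862) had the largest ratio above 1 of the joined loci that passed the filter. Kif27 is a kinesin motor protein. The locus was at 0.532 FPKM in the control and 10.2 FPKM in the BDE-47 group, 19.2-fold higher, or 7.31-fold with 1 FPKM added to both values. The miR-6369 hairpin (chr13:58313044-58313149, minus strand) is shown because only 2 of its 106 bases fall in an annotated Kif27 exon; the mature microRNA is in capitals.
Mir6369: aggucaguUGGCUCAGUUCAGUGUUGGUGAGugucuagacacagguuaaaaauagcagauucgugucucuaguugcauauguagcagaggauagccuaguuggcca

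The coding 2210011C24Rik with miR-1199 (chr8:84010228-84011720) followed, at 0.25 and 3.39 FPKM, 13.5-fold higher in the BDE-47 group, or 3.51-fold with 1 FPKM added. All 119 bases of its hairpin lie in the exon. Both loci were below 1 FPKM in the control group.

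Dgcr8 (chr16:18248883-18289168), the RNA-binding partner of Drosha, is at once a processing gene and a host, since the miR-1306 hairpin lies wholly in its coding sequence. Hairpins in the Dgcr8 message are themselves known substrates of the Drosha complex. The locus, joined also to Gm24572, was at 8.57 FPKM in the control and 26.9 FPKM in the BDE-47 group, 3.14-fold higher. Trmt2a, listed in the same span, was at 8.28 and 8.94 FPKM. The 79 bases of the hairpin (chr16:18284239-18284317, minus strand) follow, with both mature arms in capitals.
Mir1306: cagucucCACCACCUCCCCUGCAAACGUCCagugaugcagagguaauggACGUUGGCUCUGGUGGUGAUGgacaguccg

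The rest of the processing machinery was near equal. Of 21 genes of microRNA processing and action measured, 19 passed the filter. Dgcr8 was the 1 past 2-fold (5.26%, against 4.68% of all named loci), with 0 lower. The median log2 ratio was 0.07, against 0.01 over all named loci. There were 16 genes above 0 and 3 below, against 7215 and 6692 of all 14172 named loci. Within 1.2-fold lay 84.2% of the 19 genes and 71.3% of all named loci. Drosha was at 12.8 and 14.6 FPKM and Dicer1 at 6.41 and 7.16 FPKM in the control and BDE-47 group. The helicases that assist Drosha, Ddx5 and Ddx17, were at 258 and 280 FPKM and at 108 and 113 FPKM. Ran, the export GTPase, was at 57.3 and 56.5 FPKM, and Prkra, a Dicer partner, at 19.6 and 16.1 FPKM. The silencing factor Tnrc6b was at 45.3 and 46.9 FPKM. Ddx5 and Tnrc6b are joined loci too, with miR-3064 and miR-5113. For Dgcr8, Ddx5 and Tnrc6b the value is that of the joined entry, not of the processing gene alone.

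The other coding loci described as higher lay between 2.06-fold and 2.87-fold. Epc1 with miR-1893, a subunit of a histone acetyltransferase complex, was at 8.69 FPKM in the control and 24.9 FPKM in the BDE-47 group. Ache with miR-8116, which breaks down acetylcholine, was at 6.87 and 14.5 FPKM. Nbeal2 with miR-8107, needed for platelet granules, was at 2.6 and 5.35 FPKM. These 3 differed in where the hairpin lies, in the coding sequence of Epc1, across the coding edge of an exon in Nbeal2 and in an intron of Ache.

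Cpa3 with miR-7007 (chr3:20215616-20242181) encodes the carboxypeptidase of mast cell granules. It was at 0.953 FPKM in the control and 2.04 FPKM in the BDE-47 group, 2.14-fold higher. Its second row without a microRNA had 0.742 and 2.06 FPKM, which is a log2 ratio of 1.47. The mast cell genes chosen to stand beside it summed to 7.18 and 12 FPKM. All 4 that passed the filter were higher in the BDE-47 group, as were 7215 of all 14172 named loci. Mcpt4, at 1.18 and 3.32 FPKM, was the 1 past 2-fold. Kit was at 2.41 and 3.32 FPKM, Cma1 at 1.91 and 2.53 FPKM and Tpsb2 at 1.55 and 2.81 FPKM. Fcer1a, at 0.134 and 0.0587 FPKM, was lower and did not pass the filter. The part of these genes in the Cpa3 value was not tested.

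Among the loci that were lower in the BDE-47 group, Gm5134 with miR-6409 (chr10:75954514-76009589) stood out with 4 FPKM in the control and 0.0629 FPKM in the BDE-47 group, 63.6-fold lower. With 1 FPKM added to both values the ratio was 4.7-fold. The miR-6409 hairpin lies in an untranslated part of a Gm5134 transcript.

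Cd27 and Pou2f2, also lower, are genes of lymphocytes. Cd27 with miR-8113 (chr6:125223602-125239934), a receptor of the tumour necrosis factor family, was at 8.17 FPKM in the control and 1.03 FPKM in the BDE-47 group, 7.94-fold lower, or 4.52-fold with 1 FPKM added. Pou2f2 with miR-6537 (chr7:25090635-25132462), the B cell transcription factor Oct-2, was at 6.54 and 1.57 FPKM, 4.17-fold lower. Their rows without a microRNA were lower in level and had smaller ratios, and a Cd27 row went the other way. That row had 0.27 and 0.651 FPKM, 2.41-fold higher in the BDE-47 group. The other Cd27 row had 1.09 and 1.13 FPKM, and Pou2f2 had 1.13 and 0.624 FPKM. Lymphocyte markers, chosen after these values were seen, summed to 13.7 FPKM in the control and 10.4 FPKM in the BDE-47 group. Of the B cell genes among them, Cd79a was at 4.35 and 2.71 FPKM and Ms4a1 at 1.78 and 1.03 FPKM. The T cell genes Cd3e and Cd3g were at 0.829 and 1.4 FPKM and at 0.727 and 1.19 FPKM. Cd2, also in the list, was lower in the BDE-47 group, at 1.66 and 1.28 FPKM. Cd8a, at 0.0708 and 0.0575 FPKM, did not pass the filter. The part of these markers in the Cd27 and Pou2f2 values was not tested.

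Prmt2 with miR-678 (chr10:76207225-76237865), an arginine methyltransferase, was at 57.3 FPKM in the control and 14.3 FPKM in the BDE-47 group, 4-fold lower. Its hairpin lies wholly in an untranslated exon part. Wdfy2 with miR-8098, an endosomal protein, was at 20 and 7.57 FPKM, and its second row without a microRNA at 4.69 and 3.71 FPKM. Apba3 with miR-3057, an adaptor protein, was at 28.4 and 12.7 FPKM. Glce with miR-5133, the epimerase that shapes heparan sulfate chains, was at 145 and 72.5 FPKM and sat on the 2-fold line. These 4 had the highest control values among the 7 lower loci.

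**Figure D4:**
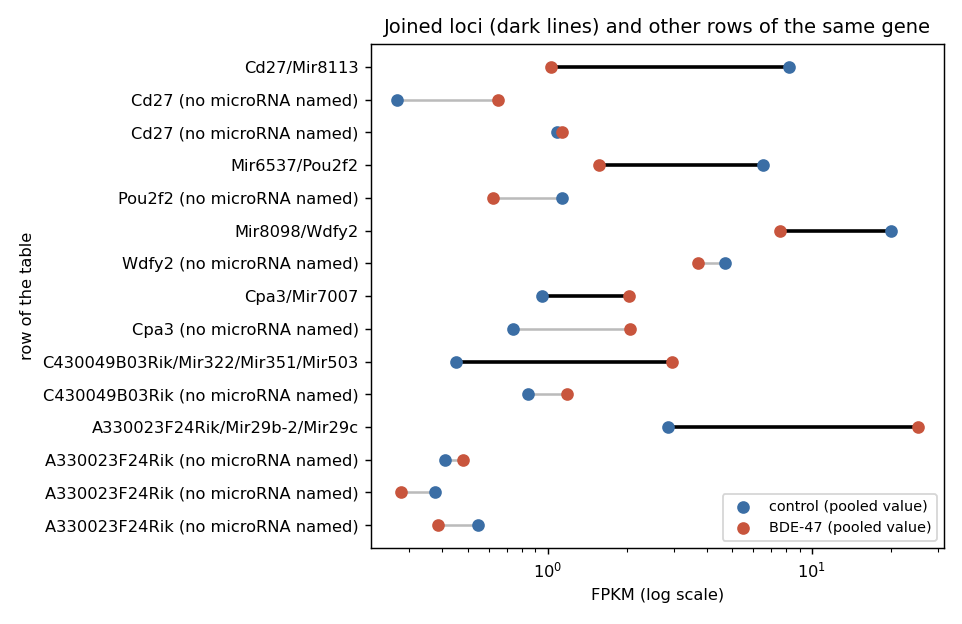
Rows of the table for the 6 joined loci at or past 2-fold whose longer gene has other rows; dark lines join the control (blue) and BDE-47 (red) values of the joined locus, grey lines those of rows of the same gene with no microRNA named (FPKM, log scale). Of the 9 grey rows, 1 (Cpa3) is 2-fold or more apart in the same direction as its joined locus. A Cd27 row is 2.41-fold apart in the opposite direction.

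Several rows can stand for a gene, and 57 of the 129 joined loci shared their listed span with at least 1 other row. A row of the same longer gene without a microRNA existed for 22 joined loci, 26 rows in all. For the 6 loci past 2-fold that had one, 1 of the 9 rows was 2-fold or more apart in the same direction, and 5 of the 9 passed the filter. A Cd27 row, which did not pass it, was 2.41-fold apart in the opposite direction. Spread over several rows were also loci within 2-fold. Pnpla3, a lipase-like protein of fat and liver, was at 267 and 311 FPKM in the row with miR-6392 and at 7.46 and 12.9 FPKM in the other. Zbtb20, a transcription repressor, was at 32.7 and 54.9 FPKM with miR-568 and at 6.19 and 8.06 FPKM without.

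Most of the hairpins touch an exon. With RefSeq and GENCODE vM21, all 139 microRNAs could be placed on the genome, 134 of them inside their locus and 130 on the strand of the longer gene, with 0 on the opposite strand. Of the hairpins named in joined loci, 106 of 119 with a RefSeq hairpin touched an exon (89.1%) and 7 lay in introns only. Of those named alone in the table, 112 of 813 touched an exon (13.8%) and 419 lay in introns only (51.5%). The part that the joining rule of the assembly has in this contrast was not tested. Touching can mean few bases: 72 of 130 hairpins of joined loci lay wholly in exons of 1 transcript (55.4%), and 47 partly (36.2%).

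By the position of the hairpin, a locus took the first class that any base of its hairpins touched, in the order given here. This put 61 joined loci in coding sequence, 36 in an untranslated part and 16 in an exon of a non-coding transcript. A further 5 were in an intron and 7 outside the gene, and 4 were not placed against it. Few bases can set a class, such as 1 for Tkt in coding sequence and 2 of 106 for Kif27. The class outside the gene includes hairpins that the references place on another chromosome, such as miR-6367 of the Ahnak row. Of the 56 coding-sequence loci that passed, 5 were at least 2-fold higher and 3 lower (14.3%), against 4.26% of loci with a single coding gene and, over all named loci, 0.811% higher and 3.87% lower. Of the 35 untranslated-part loci that passed, 2 were higher and 4 lower (17.1%). Of the 9 non-coding exon loci that passed, 3 were higher, as were 2 of 5 intron loci and 1 of 6 outside the gene, with 0 lower in these classes. Where a hairpin lay wholly in exons, 14 of 62 loci were past 2-fold (22.6%), and where it lay partly in exons, 3 of 38 (7.89%). With no base found in an exon it was 3 of 13 (23.1%), a class that holds intron hairpins, those outside the gene and those not placed. This last split was chosen after the values were seen.

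Of the 15 joined loci with the highest means, 9 lay within 1.2-fold and 2, Ctdsp2 and Glce, were at or past 2-fold. Among all named loci with a mean of 20 FPKM and over, 81.2% lay within 1.2-fold and 1.19% at or past 2-fold. Cd74 with miR-5107, the invariant chain of antigen presentation, was the highest at 501 FPKM in the control and 375 FPKM in the BDE-47 group. Glul with miR-8114, glutamine synthetase, was at 360 and 367 FPKM, and Ahnak, a large scaffold protein, at 298 and 304 FPKM. The Ahnak row names miR-6367, but RefSeq places that hairpin on chromosome 16, outside the locus. Such a mismatch was seen for 5 of the 139 microRNAs.

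Others of the 15 highest serve splicing, ubiquitin-like tagging and sugar metabolism. Sumo2 with miR-684-1, a ubiquitin-like modifier, was at 149 and 176 FPKM, and Ddx39b with miR-8094, a splicing helicase, at 171 and 148 FPKM. Tkt with miR-3076, transketolase of the pentose phosphate pathway, was at 141 and 162 FPKM, and Gnb2 with miR-6418, a G protein subunit, at 124 and 128 FPKM. Krcc1 with miR-8112 was at 147 and 109 FPKM. Stub1, a ubiquitin ligase, with Rhbdl1 and miR-3082 was at 83.3 and 87.4 FPKM. The widest differences in this group, apart from Ctdsp2 and Glce, were those of Scd2 and Scd3 with miR-5114, which make monounsaturated fatty acids, at 94.4 and 148 FPKM, and of Hipk3 with miR-1902, a protein kinase, at 117 and 79.3 FPKM.

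Around the threshold, the nearest loci inside were Glce and F630028O10Rik, above. The nearest outside were Dnaja1 with miR-207, a heat shock cochaperone, at 44 and 82.7 FPKM (1.88-fold) and Vezt with miR-331, a protein of cell junctions, at 5.86 and 10.9 FPKM (1.87-fold). Past 1.5-fold lay 28 of the 113 joined loci, against 1440 of all 14172 named loci, so 8 joined loci fell between the 2 thresholds.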

How the data were processed

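RNA from gonadal fat of 4 BDE-47 and 3 control pups was analysed. Per the labels, the authors used TopHat2 for alignment (mm10), Cufflinks 2.1.1 for transcript assembly and Cuffdiff 2.1.1 to compare the groups. Not given in the sources used here were the annotation, the strand setting and how libraries were scaled, so reads of overlapping genes may be shared. The deposited table gives log2 FPKM, 1 pooled value per group, with a value of 0 listed at -10. It has 0 unused columns of single mice. Its columns of log2 ratio, q value and significance hold the authors' own comparison and were not used.

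Ratios were taken as the difference of the group log2 values with no pseudocount, over loci with a gene name and above 1 FPKM in at least 1 group, with Python 3.11.15, pandas 2.3.3, numpy 2.4.6 and matplotlib 3.10.9. No test was possible without values per mouse, and without read counts the precision of a value is not known. Starts in the table count from 0, since 255 of 255 microRNA rows with a RefSeq hairpin's end matched its start once 1 was added, and starts are printed from 1. The span in a row can cover several genes. Hairpins were placed with RefSeq GRCm38.p6 and GENCODE vM21. The counting of members, ratios and thresholds was tested on simulated data.

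Named loci were the 12 largest ratios in each direction at or past 2-fold, the 15 highest means, the top 3 of each microRNA family list, the top 6 processing genes and the 2 nearest the threshold on each side. One locus named by this rule is not reported here, though it is in the counts. Drosha, Dicer1, loci of familiar microRNAs outside the lists, other rows of the same gene and single marker genes were named after their values were seen. Members and lists were chosen with earlier results of these data known, and the lymphocyte, mast cell and neutrophil lists after these values were seen. Alternatives were other filters, thresholds and scalings, a pseudocount of 1 and other readings of the member rule.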

Additional observations from a re-analysis of the deposited data

How the results depend on the processing

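The 20 joined loci at or past 2-fold became 25 with no filter, 16 above 5 FPKM, 15 with 1 FPKM added to both values, 15 above 1 FPKM in both groups (an alternative chosen after seeing the data), 19 with Mir17hg-like symbols read as microRNAs, 19 with 1 longer gene only, and 20 when centred on the median of all loci (0.01) or kept to loci the table marks as having enough reads. At 1.5-fold there were 28, and at 3-fold 10, of which 6 were higher and 4 lower, since the threshold is stricter. Counts over all named loci are given above only for the main setting, 1.5-fold and loci above 1 FPKM in both groups. In the other settings the joined loci cannot be set against all named loci from these counts. With 1 FPKM added, the 5 loci that fell under 2-fold were those of Glce, F630028O10Rik, Nbeal2, Ache and Cpa3. The median log2 ratio lay between 0.04 and 0.06 and its median size between 0.21 and 0.25 in these settings. Family-list loci past 2-fold went from 5 to 4 above 5 FPKM. Ratios of the 20 single loci were recomputed only with 1 FPKM added and with centring. Neither setting could turn the direction of a ratio of that size. No paired analysis was possible because the table holds 1 pooled value per group, and for the same reason no mouse could be left out. The table gives no read counts, so low values such as 0.0629 FPKM cannot be given an error.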

Other observations

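Annotated hairpins also lay inside joined loci without being named there. There were 8 such hairpins in 7 loci, on the strand of the locus, and 6 of them had a row of their own. Mir98 and Mirlet7f-2, inside the locus of Huwe1 and miR-3113, were at 0 in both groups in their own rows, while the Huwe1 row was at 21.9 FPKM in the control and 24.4 FPKM in the BDE-47 group. Mir6541, inside the span of Wdfy2, was listed at 0 in the control and at 4.32 FPKM in the BDE-47 group, beside 20 and 7.57 FPKM for Wdfy2 with miR-8098.

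Rows of microRNAs alone that share a seed with a joined locus at or past 2-fold numbered 31, and 28 of them were at 0 in both groups. The other 3 were Mir24-2 at 4.63 and 4.08 FPKM, Mir16-1 at 1.27 and 1.22 FPKM, and Mir6338 at 10.3 FPKM in the control and 0 in the BDE-47 group. Mir29a and Mir29b-1, which carry the seed of miR-29c, were at 0 in both groups, as were Mir19a and Mir19b-2, which carry that of miR-19b.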
